A study of Mus musculus with 32 samples.

Results

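Mouse embryonic stem cells (ESCs) without endogenous β-catenin, either exposed to a high level of exogenous β-catenin and then withdrawn from it (C1HV) or never induced (C1T), were compared after 4 days of monolayer differentiation. The groups were taken from the sample labels alone, as 4 C1HV and 4 C1T libraries, 8 of the 32 libraries in the series. Every cell came from the C1 line, β-catenin knockout ESCs that carry EF1a-rtTA and a doxycycline (dox)-inducible fusion of a destabilising domain, mCherry and the degradation-resistant β-catenin S33Y, both added by lentivirus. Dox starts transcription of the fusion, and trimethoprim (TMP) keeps the protein from being degraded through its destabilising domain. C1HV cells received dox and TMP for 48 h, were sorted as the fraction with the highest mCherry signal, and then spent 4 days in NDiff227 medium on gelatin with the vehicle DMSO and neither inducer. C1T cells received TMP alone, were sorted as live cells and spent the same 4 days in NDiff227 with TMP and without dox. The groups therefore differ in earlier induction of the fusion, in dox exposure, in the mCherry gate and in TMP during differentiation, and these cannot be told apart. The fusion is driven by an artificial promoter in a single engineered line, and both groups lack the endogenous protein throughout. 4 further groups of 4 libraries each served as references: C1 (TMP only, day 0), C1H (the sorted high fraction, day 0), C1MV (the sorted middle fraction, withdrawn, day 4) and C1HDT (the high fraction kept in dox and TMP, day 4).

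β-catenin links cadherins to the cytoskeleton at the cell membrane and, when Wnt signalling protects it from degradation, enters the nucleus and acts with TCF/LEF factors on target genes. ESCs that leave naive pluripotency lose factors such as Nanog, Klf4 and Tfcp2l1 and gain those of the early post-implantation epiblast, such as Fgf5, Pou3f1 and Dnmt3a. Cells of the primitive endoderm, an extraembryonic lineage, are instead recognised by Gata6, Gata4, Sox17 and Foxa2 and secrete a basement membrane rich in laminin and type IV collagen.

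The libraries held 1570743 to 2464144 assigned reads in C1T and 1502559 to 2318126 in C1HV. Ctnnb1, which encodes β-catenin on chromosome 9, was at 8.16, 11.2, 12.4 and 7.18 CPM (counts scaled to library size) in C1T and at 4.13, 6.25, 8.604 and 5.86 CPM in C1HV (log2 fold change -0.65, SE 0.29, FDR 0.0816, where FDR is the Benjamini-Hochberg adjusted p of edgeR's quasi-likelihood test). The groups overlapped and the difference did not pass the test. With inducers kept on, C1HDT was at 30.8 ± 3.75 CPM (SD, n = 4), so C1HV was lower by 2.26 on the log2 scale (FDR 3.61e-15). The mCherry sort at day 0 had left C1H at 41.2 ± 5.701 against 7.81 ± 2.63 CPM in C1 (FDR 6.48e-20). The paper describes the full coding sequence of β-catenin as deleted in the knockout line. These are 3′ end reads, which cannot separate any remaining endogenous transcript from the fusion. Pou5f1, Sox2 and Sall4, which define pluripotent cells, were detected in all 8 libraries. The share of reads from mitochondrially encoded genes was lower in C1HV (0.862% ± 0.0588) than in C1T (1.66% ± 0.108), while the share from ribosomal protein genes was higher (10.9% ± 0.524 against 9.75% ± 0.137; SD, n = 4). Both reached the smallest p that 4 against 4 libraries allow in a two-sided exact permutation test (0.0286; 0.0714 after adjustment over 5 library measures), and the part of either in the gene results was not tested. The labels call the 4 libraries of a group biological replicates without saying whether they came from separate sorts. A heatmap legend in the paper describes the 4 averaged samples as belonging to the same experiment. Every p therefore measures only the spread between these libraries. In bulk RNA, fewer cells of a type and less RNA per cell cannot be told apart.

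Of 15280 genes tested, 4273 passed FDR under 0.05 between C1HV and C1T (28%), with 2091 higher in C1HV (13.7%) and 2182 lower (14.3%). Scaled by library size alone the split was 2575 higher and 1762 lower. Below, rose and fell mean higher and lower in C1HV than in C1T at day 4, not a change over time. List counts for this comparison are to be set against the 13.7% higher and 14.3% lower of all genes. The median size of a called change was 0.70 on the log2 scale. 780 of the called genes were more than 2-fold higher and 568 more than 2-fold lower. Against the withdrawn middle fraction C1MV, in contrast, a single gene passed (0.00654%), although C1MV against C1T gave 4621 genes (30.2%). It was the sodium-citrate transporter Slc13a5, which DESeq2 did not call. Its level was 6.201, 6.25, 5.59 and 5.86 CPM in C1HV and 20.2, 13.1, 11.3 and 14.3 CPM in C1MV, without overlap (log2 fold change -1.29, SE 0.24, FDR 0.00585), while C1T stood at 2.35 ± 1.05. 1150 genes had an unadjusted p under 0.05 in that comparison. No gene passed without C1MV replicate 1 or without C1HV replicate 3, and 8 passed without C1MV replicate 4, so the count depends on single libraries and a difference between the doses was hardly detectable after withdrawal at this depth. Against C1HDT, which kept its inducers, 2442 genes passed (16.0%), with 1052 higher in C1HV (6.88%) and 1390 lower (9.1%). With library size scaling that split became 1331 higher and 1097 lower.

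Effector genes and regulators of the endoderm had the highest median changes of the 25 gene lists examined. Of 12 endoderm regulators tested, 7 rose in C1HV and none fell, and the median log2 fold change was 1.94 against 0.00 (0.005 unrounded) over all genes. Sox17, a transcription factor that directs endoderm formation, was at 0.9597, 0, 0 and 0 CPM in C1T and 12.4, 10.8, 12.05 and 14.96 CPM in C1HV. Every C1HV library lay far above every C1T library, and with only 2 reads over the C1T group the ratio was 50.5 (95% counting interval 13.6 to 423; FDR 6.00e-16). Foxa2, a pioneer factor of endoderm, was at 2.88, 2.08, 2.38 and 0.653 in C1T and 22.7, 23.3, 21.9 and 29.9 in C1HV (log2 fold change 3.50, SE 0.31, FDR 9.73e-20). Gata6, which initiates the primitive endoderm programme, rose from 2.88, 4.58, 2.38 and 1.96 CPM in C1T to 26.9, 36.9, 31.8 and 33.2 CPM in C1HV (log2 fold change 3.36, SE 0.26, FDR 1.13e-23). Its partner Gata4 rose as well, from 2.22 ± 2.11 to 19.4 ± 5.403 CPM (log2 fold change 2.97), without overlap between groups. Sox7, expressed with Sox17 in primitive endoderm, had a ratio of 40.8 (95% counting interval 6.89 to 1654; FDR 4.49e-07). Prdm1, a repressor used in several lineages, rose by 0.90 (FDR 0.0149, but 0.0618 without C1T replicate 4). The other 5 did not pass, among them Eomes (18.7 ± 3.01 in C1T and 13.3 ± 4.12 in C1HV), Hhex (6.92 ± 2.69 and 7.37 ± 2.74) and Hnf4a (5.24 ± 2.48 and 7.09 ± 1.81). Cer1, a secreted antagonist made by anterior endoderm, and Gata5 were under the filter on low counts, with at most 1 read in each group.

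Endoderm effector genes, the proteins these cells use for uptake, secretion and signalling, were higher too. 15 of 20 tested rose and none fell, with a median log2 fold change of 2.99. Dab2, an adaptor for endocytosis, was at 12, 11.7, 14.8 and 6.53 CPM in C1T and 263, 234, 253 and 264 CPM in C1HV, a 22.5-fold difference in means (log2 fold change 4.45, SE 0.22, FDR 4.95e-15). Amn and Cubn together form a receptor for vitamin B12 uptake. Amn rose from 3.36, 2.91, 4.77 and 3.92 CPM in C1T to 80.1, 72.7, 89.1 and 93.03 CPM in C1HV (log2 fold change 4.48, SE 0.22, FDR 3.15e-31). For Cubn, at 0 to 0.4799 CPM in C1T and 12.9 to 17.04 in C1HV, the ratio was 59.1 (95% counting interval 15.97 to 494). Cubn, with 2 reads over the C1T group, was near background in the never-induced cells, whereas Amn was detected in every C1T library. Spink1, a secreted protease inhibitor, rose from 4.52 ± 1.43 to 137 ± 11.1 CPM (log2 fold change 4.93, FDR 1.75e-31), and Pdgfra, a receptor kinase of primitive endoderm, from 0.7599 ± 0.813 to 17.4 ± 2.44 (4.46, FDR 1.92e-17). Sparc, a matrix-binding glycoprotein, was one of the most abundant transcripts of the list in C1HV. It was at 195, 209, 235 and 234 CPM in C1T and 2096, 2069.8, 2229 and 2199.7 in C1HV (log2 fold change 3.30, SE 0.07, FDR 4.57e-82). Pth1r, Srgn, Serpinh1, Ctsl, Cited1, Cryab, Dkk1 and Lrp2 rose by 0.76 (Lrp2) to 4.60 (Cited1), and the lipid carrier Apoe from 1311 ± 221 to 2423 ± 45.5 CPM. Apoa1, Apob and Ttr, carrier proteins of mature visceral endoderm, did not pass: Apoa1 was at 712 ± 178 and 609 ± 82.7 CPM, Apob at 37.6 ± 9.38 and 35.3 ± 8.499, and Ttr at 211 ± 78.5 and 171 ± 22.7 in C1T and C1HV.

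Structural genes of the basement membrane followed the same direction: 19 of 26 tested were called higher and none lower (median 0.95). At day 0 the list summed to 2873 to 3007 CPM in C1 and 2304 to 2428 in C1H. At day 4 it summed to 1180 to 1231 CPM in C1T and 2735 to 2968 in C1HV. The C1HV sums were thus near those of day 0, and the C1T sums were lower. Lama1, the laminin chain of the earliest embryonic basement membranes, was at 3.36, 3.75, 4.29 and 6.53 CPM in C1T and 177, 251, 197 and 208 CPM in C1HV (log2 fold change 5.57, SE 0.22, FDR 6.46e-24), the highest fold change of the list. Its partner chains Lamb1 (55.5 ± 3.301 to 367 ± 16.2 CPM) and Lamc1 (61.8 ± 3.203 to 221 ± 19.4) rose too, so that all 3 chains of laminin-111 were higher in C1HV. Lamc1 was higher still at day 0, at 394 CPM in C1 and 313 in C1H. Col4a1, one of the paired type IV collagen chains, rose from 28.8, 34.98, 32.4 and 25.5 CPM in C1T to 371, 374, 376 and 409 CPM in C1HV (log2 fold change 3.63, SE 0.12, FDR 5.48e-33). Col4a2, the other chain, rose from 13.4, 13.7, 10.5 and 12.4 CPM in C1T to 185, 195, 173 and 178 CPM in C1HV (log2 fold change 3.86, SE 0.14, FDR 1.70e-55). The groups did not overlap at either gene. Exons of this pair overlap on opposite strands, and whether counting used strand is not stated, so how reads divide between them is uncertain. Smaller rises were called for the perlecan gene Hspg2 (2.03), Lamb2 (1.75), the collagen-modifying enzymes P4ha1 (1.58) and P4ha2 (1.38), Nid1 (1.03), Agrn (0.95), Fn1 (0.50) and the laminin receptor subunit Itgb1 (0.46). Integrins Itga3, Itga5, Itgav and Itgb5 did not pass, with log2 fold changes of -0.11 (Itgb5) to 0.41 (Itgav). Col4a1 and Col4a2 lie on chromosome 8, where 161 of 849 tested genes were called higher (19.0%) and 92 lower, and the part of the chromosome in their rise was not tested. Fibroblast markers summed to 12.5 to 18.9 CPM in C1T and 15.5 to 26.7 in C1HV. Of 6 tested 2 were called higher (33.3%, against 13.7% of all genes) and none lower (median 1.06). The 2 were Thy1 (3.53 ± 1.24 to 8.09 ± 1.29 CPM) and Col1a1 (0.759 ± 1.13 to 2.68 ± 1.17). Col1a1 lost its call without any of C1T replicates 1, 2 and 4 or C1HV replicate 3 (FDR 0.133, 0.15, 0.0543 and 0.178). Of the fibroblast markers under the filter, Postn had 0 reads and Lum at most 3 per group. Col6a2 had 3 reads in C1T and 8 in C1HV, Acta2 1 and 5, Col6a1 1 and 3, and Col3a1 5 and 3. Blood and endothelial markers summed to 62.0 to 67.9 and 59.1 to 74.0 CPM, with 0 of 8 called.

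**Figure D1:**
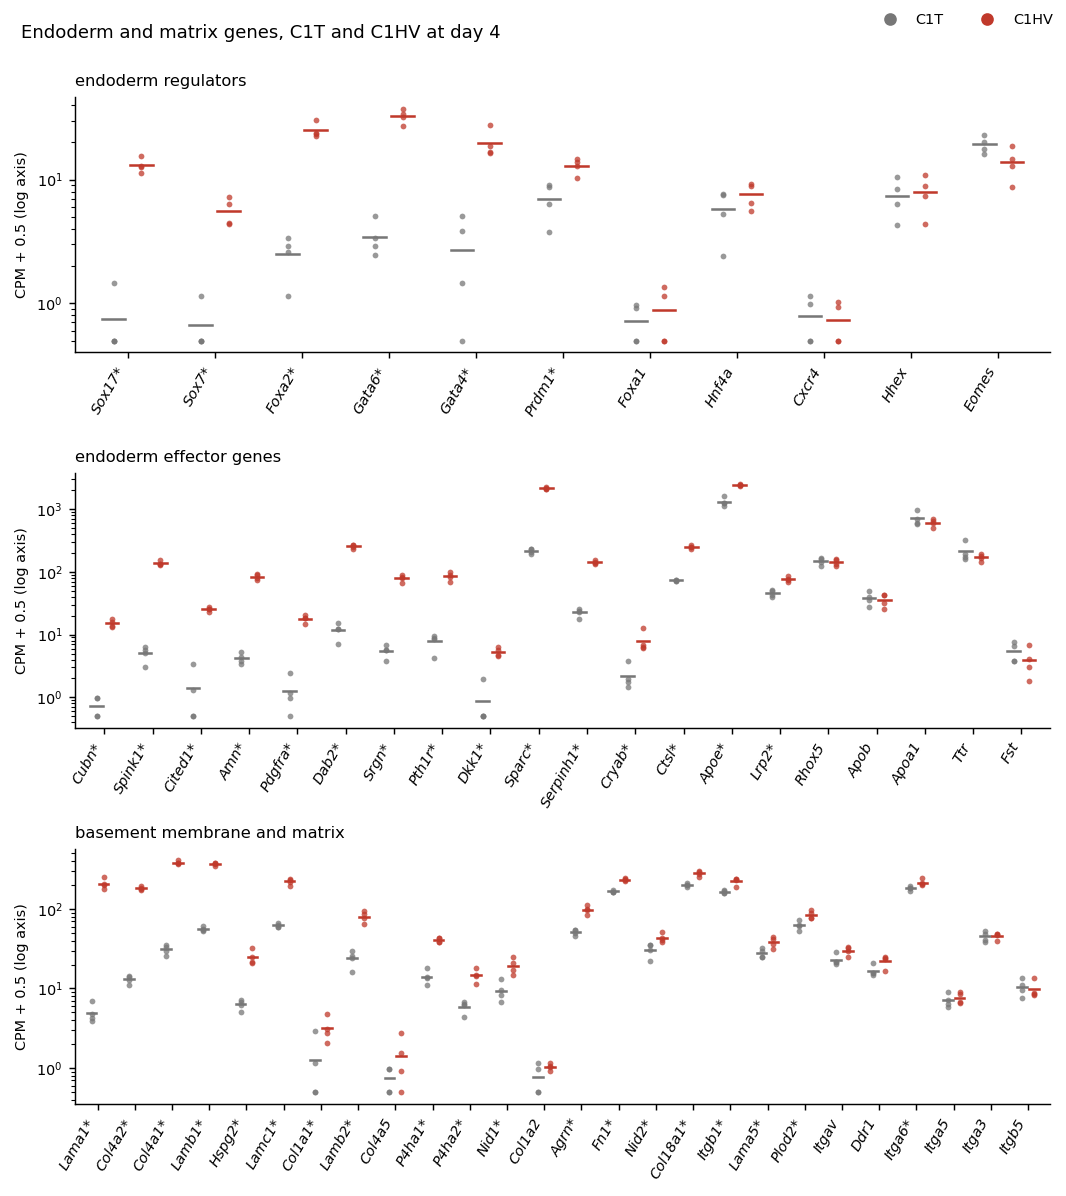
Endoderm and basement membrane genes in each library, with CPM plus 0.5 on a log axis for the 4 C1T and 4 C1HV libraries and an asterisk on genes past FDR 0.05. Sox17, Foxa2, Gata6, Dab2, Sparc, Lama1, Col4a1 and Col4a2 separate the groups completely, while genes without an asterisk such as Hnf4a and Apoa1 lie at similar levels in both.

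Because Col4a1 and Col4a2 share a head-to-head promoter, their sequences are shown here as RefSeq gives them for GRCm38.p6, from 250 bases before to 50 after each start site. The Col4a1 window is chr8:11312777-11313076 on the minus strand and the Col4a2 window chr8:11312555-11312854 on the plus strand, and they overlap by 78 bases. Capitals mark CCAAT or its reverse complement ATTGG, the only one of the motifs searched that either window holds.
Col4a1: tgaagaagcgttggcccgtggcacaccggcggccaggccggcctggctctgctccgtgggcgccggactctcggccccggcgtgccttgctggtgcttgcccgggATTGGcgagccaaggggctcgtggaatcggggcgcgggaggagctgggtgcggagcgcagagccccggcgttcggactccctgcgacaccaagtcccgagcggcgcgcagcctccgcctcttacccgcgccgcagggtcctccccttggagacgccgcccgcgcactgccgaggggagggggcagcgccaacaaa
Col4a2: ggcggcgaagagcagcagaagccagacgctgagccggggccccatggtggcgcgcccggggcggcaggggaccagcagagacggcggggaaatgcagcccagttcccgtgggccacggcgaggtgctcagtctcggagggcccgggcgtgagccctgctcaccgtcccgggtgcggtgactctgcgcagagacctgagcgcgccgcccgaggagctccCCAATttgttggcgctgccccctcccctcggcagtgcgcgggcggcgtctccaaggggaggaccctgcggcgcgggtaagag
A CCAAT box stood in 9 of 19 basement membrane genes with a window (47.4%) in 43% of all tested genes with a window and in 37.4% of all 32851 windows, and it is given as a description only.

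How the endoderm genes stood against constantly induced cells depended on the gene. C1HDT had 6 of 12 regulators and 15 of 20 effectors higher than C1T and no regulator but 4 effectors lower (Ttr, Apoa1, Apob and Fst), where 33.5% of all genes passed, 17.4% higher and 16.1% lower. Since this comparison and that of C1HV with C1T share the C1T libraries, only C1HV against C1HDT directly is used as a test between them. Sox17 was at 17.7, 21.5, 23.04 and 27.2 CPM in C1HDT, and C1HV was lower by 0.84 (FDR 0.00402). Dab2 was at 442 ± 47.7 CPM in C1HDT (lower in C1HV by 0.80, FDR 1.38e-04) and Pth1r at 149 ± 22.4 against 84.9 ± 13.2 (lower by 0.81, FDR 1.22e-08). Of the 12 regulators 2 were lower in C1HV, Sox17 and Gata4 (by 0.57), and 1 was higher, Prdm1, a transcriptional repressor (4.47 ± 1.18 CPM in C1HDT and 12.4 ± 1.897 in C1HV, FDR 9.46e-05), whereas Gata6, Foxa2 and Lama1 did not pass (log2 differences -0.29, -0.47 and -0.13). In all, 9 of 20 effectors were lower and 2 higher in C1HV than in C1HDT, the latter Apoe (0.72) and Apob (0.45). Sox17, Dab2 and Pth1r thus lay less than 1 log2 unit below constantly induced cells and more than 3 above never-induced ones.

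Naive pluripotency factors were also higher in C1HV. Of 20 tested, 13 rose and 3 fell (median 0.78), and the summed level of the list was 3232 to 3451 CPM in C1HV against 1751 to 2164 in C1T. Nanog, a central factor of the naive network, was at 92.1, 89.5, 82.5 and 95.96 CPM in C1T and 142, 189, 158 and 165 CPM in C1HV (log2 fold change 0.86, SE 0.10, FDR 2.96e-13). Klf4, a target of LIF and Stat3 signalling, was at 41.7, 43.7, 36.7 and 37.9 CPM in C1T and 88.4, 111, 92.5 and 125 CPM in C1HV (log2 fold change 1.36, SE 0.13, FDR 1.25e-12). Tfcp2l1, which maintains naive self-renewal, rose from 69.1, 68.7, 51.5 and 68.5 CPM in C1T to 132, 129, 118 and 134 CPM in C1HV (log2 fold change 0.99, SE 0.09, FDR 7.55e-18). None of these 3 genes overlapped between the groups. The co-activator of Akt kinase Tcl1 rose from 33.4 ± 6.74 to 125 ± 18.2 CPM (1.89), and Stat3 itself from 30.8 ± 2.55 to 89.7 ± 8.69 (1.53) with its feedback inhibitor Socs3 (1.98). Klf5, the most abundant of the list at 1862 ± 51.3 CPM in C1HV, rose by 0.86, and Klf2, Tbx3, Esrrb, Zfp42 and Jam2 by 0.50 to 0.85. The 3 that fell were Gbx2 (25.95 ± 4.36 to 7.36 ± 1.17 CPM), Nr0b1 (57.9 ± 16.7 to 25.99 ± 3.46) and Fgf4 (132 ± 15.8 to 79.2 ± 2.3), the last the ligand that starts ERK signalling in ESCs. Dppa3, Lifr, Nr5a2 and Prdm14 did not pass.

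Naive factors were also higher in withdrawn than in constantly induced cells. 15 of the 20 were higher in C1HV than in C1HDT and 1 lower, and the C1HDT sum of 1838 to 2174 CPM lay within or just beyond the C1T range. Nanog was at 90.5, 75.5, 73.7 and 82.7 CPM in C1HDT (C1HV higher by 1.01, FDR 2.80e-16), Zfp42 at 38.5 ± 16.3 against 133 ± 18.4 CPM in C1HV (higher by 1.77) and Esrrb at 42.7 ± 9.64 against 117 ± 5.28 (higher by 1.45). All C1HV sums remained far under the 8683 to 9009 CPM of C1H cells at day 0.

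General pluripotency genes moved mostly the other way. 9 of 14 fell and 2 rose (median -0.46). Pou5f1, the gene for Oct4, was at 68.6, 65.4, 65.3 and 58.8 CPM in C1T and 41.9, 39.8, 32.3 and 34.5 CPM in C1HV (log2 fold change -0.81, SE 0.14, FDR 2.73e-07), with no overlap. Utf1, a chromatin factor of pluripotent cells, fell from 299 ± 24.5 to 87.2 ± 9.85 CPM, which is 1.79 on the log2 scale (SE 0.10, FDR 2.22e-29). Dppa2 fell from 112 ± 18.99 to 42.2 ± 3.701 CPM, Zic2, Dppa4 and Zfp281 fell by 1.11, 0.58 and 0.49, while Fbxo15, a direct target of Oct4 and Sox2, rose from 128 ± 15.1 to 273 ± 22.1 CPM. Sall4 (249 ± 24.5 and 224 ± 19.05 CPM) and Lin28a (481 ± 50.6 and 457 ± 65.8) did not pass.

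Genes of the early post-implantation epiblast were lower in C1HV. 9 of 15 fell and 2 rose (median -0.69), and the list summed to 2517 to 2998 CPM in C1T, 1272 to 1394 in C1HV and 1811 to 1974 in C1HDT. Dnmt3a, a de novo DNA methyltransferase, was at 793, 748, 876 and 777 CPM in C1T and 164, 179.5, 171 and 197 CPM in C1HV (log2 fold change -2.17, SE 0.08, FDR 1.17e-55). Lef1, a TCF/LEF factor that is itself a Wnt target, was at 281, 263, 246 and 291 CPM in C1T and 72.9, 83.5, 63.2 and 105 CPM in C1HV (log2 fold change -1.75, SE 0.11, FDR 1.14e-30). Pou3f1, a POU factor of the epiblast and early neural plate, fell from 256, 225, 304 and 236 CPM in C1T to 98.2, 89.2, 101 and 91.1 CPM in C1HV (log2 fold change -1.42, SE 0.13, FDR 2.78e-12). In each of the 3 the lowest C1T library was above the highest C1HV library. Fgf5 fell from 15.2 ± 2.97 to 6.27 ± 1.08 CPM, Foxd3 from 20.2 ± 5.16 to 7.47 ± 2.81 and Sall2 from 36.8 ± 7.58 to 23.02 ± 5.02. Otx2, which defines the same stage, did not pass at 308 ± 13.8 and 293 ± 9.26 CPM. The risers were the tight-junction gene Cldn6 (8.48 ± 4.45 to 34.1 ± 5.68), which endoderm also expresses, and the Wnt antagonist Sfrp2 (12.1 ± 3.36 to 21.9 ± 5.04).

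Among the enzymes that write and remove DNA methylation, 6 of 9 were called lower and none higher. Beside Dnmt3a these included Dnmt3b, at 525, 536, 728 and 534 CPM in C1T and 280.1, 265, 265 and 267 CPM in C1HV (log2 fold change -1.11, SE 0.09, FDR 6.31e-19). Tet1, which oxidises methylated cytosine, was at 641 ± 52.3 and 315 ± 28.6 CPM (log2 fold change -1.03, SE 0.08, FDR 3.61e-21). The calls of Tet2, Uhrf1 and Dnmt1 were small (-0.46, -0.38 and -0.24). Uhrf1 lost its call without C1T replicate 4 or C1HV replicate 1 (FDR 0.0712 and 0.0908), and Tet2 without C1T replicate 1 or 2 or C1HV replicate 1 or 3 (FDR 0.0616 to 0.199), and both lost it with library size scaling. Dnmt1 lost it without any one of C1T replicates 1 to 4 and C1HV replicates 1 and 3 (FDR 0.0629 to 0.219), with library size scaling, in DESeq2, under no filter or a stricter one on low counts, and in a fit without chromosome 8 and mitochondrial genes. The cofactor Dnmt3l (348 ± 41.02 and 371 ± 23.7 CPM) and Tet3 (6.796 ± 0.787 and 7.56 ± 2.201) did not pass.

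Of 22 neural ectoderm genes 6 rose and 3 fell (27.3% and 13.6%), and of 20 mesoderm and primitive streak genes 3 rose and 4 fell (15.0% and 20.0%). Set against the 13.7% and 14.3% of all genes, the neural falls and the mesoderm list were near the background. The Notch target Hes1 rose from 27.8, 26.7, 30.04 and 26.8 CPM in C1T to 74.4, 92.6, 79.2 and 85.2 CPM in C1HV (log2 fold change 1.57, SE 0.13, FDR 1.15e-21). Sox1, an early neural factor, was at 92.3 ± 10.8 CPM in C1T and 93.3 ± 8.88 in C1HV and did not pass. Hoxb1, a posterior patterning gene of the streak, fell from 95.97, 96.2, 68.2 and 82.9 CPM in C1T to 17.6, 15.3, 19.4 and 12.4 CPM in C1HV (log2 fold change -2.38, SE 0.20, FDR 3.68e-16), and Snai1, which drives epithelial-mesenchymal transition, rose from 0.536 ± 0.786 to 5.15 ± 1.44 CPM (3.00). Brachyury (T) was under the filter, and Mixl1 and Gsc stayed under 1 CPM on average in both groups.

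Of 23 Nodal and BMP genes 4 rose and 6 fell (17.4% and 26.1%, against 13.7% and 14.3% of all genes). Bmp4, a BMP ligand of the epiblast and extraembryonic ectoderm, was at 52.3, 52.9, 45.3 and 48.3 CPM in C1T and 5.17, 9.66, 8.17 and 2.602 CPM in C1HV (log2 fold change -2.91, SE 0.24, FDR 2.32e-22). It stood at 6.08 ± 1.12 in C1HDT, where the difference from C1HV did not pass. Inhbb, an activin subunit, fell from 17.1 ± 4.71 to 4.05 ± 1.48 CPM (-2.05), and the Nodal co-receptor Tdgf1 from 254 ± 17.2 to 132 ± 21.1 (-0.95). The Nodal antagonists Lefty1 (203 ± 8.09 and 253 ± 37.2 CPM) and Lefty2 (68.9 ± 10.2 and 84.7 ± 9.74) did not differ past the threshold from C1T, yet both were higher than in C1HDT (0.81 and 1.36). Nodal itself was at 58.6 ± 3.898 and 44.7 ± 9.27 CPM (log2 fold change -0.37, SE 0.13, FDR 0.0243), a call lost without C1T replicate 1, 2 or 4 or C1HV replicate 2 or 4 (FDR 0.0584 to 0.229) and with library size scaling. The ligand Bmp7 moved the other way from Bmp4, from 4.74 ± 1.45 to 9.76 ± 2.96 CPM (log2 fold change 1.10, SE 0.31, FDR 0.00363), a call lost without C1HV replicate 3 (FDR 0.0509). Of the Id genes, which BMP signals induce, Id1, Id2 and Id4 rose (0.88, 0.79 and 1.25) and Id3 fell (-1.36), and the call of Id1 was lost without C1T replicate 2 or 3 or C1HV replicate 3 or 4 (FDR 0.0553 to 0.0819).

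Of 26 FGF and ERK genes 9 rose and 8 fell (34.6% and 30.8%, against 13.7% and 14.3% of all genes). Read-outs of ERK activity moved in both directions. Etv4 was at 145, 148, 159 and 137 CPM in C1T and 57.4, 47.7, 38.7 and 44.9 CPM in C1HV (log2 fold change -1.65, SE 0.14, FDR 1.35e-15), and Etv1 and the feedback inhibitors Dusp6, Spry4, Spry2 and Spred1 fell by 0.48 to 1.20. Etv5 did not pass (404 ± 27.2 and 388 ± 34.3 CPM). The immediate early genes Fos (0.9104 ± 0.866 to 3.86 ± 2.03 CPM, log2 fold change 2.16, SE 0.62, FDR 0.00399), Egr1 (3.38 ± 1.64 to 6.43 ± 1.52, log2 fold change 1.01, SE 0.40, FDR 0.0438) and Ier3 (11.2 ± 3.14 to 20.1 ± 3.79, log2 fold change 0.78, SE 0.23, FDR 0.004795) rose. The call of Fos was lost without C1HV replicate 3 (FDR 0.0704), and that of Egr1 without C1T replicate 1 or 2 or C1HV replicate 1 or 3 (FDR 0.0835 to 0.149), in DESeq2 and with no filter on low counts. Among ligands Fgf4 and Fgf5 fell (-0.74 and -1.29). Others that rose included the ligand Fgf10, at 0, 0.833, 1.43 and 0.653 CPM in C1T and 7.75, 12.5, 10.8 and 6.51 in C1HV (log2 fold change 3.59, SE 0.51, FDR 1.27e-09), the receptor Fgfr3 (1.13 ± 0.282 to 10.7 ± 0.558 CPM), Fgf3 (6.71 ± 2.18 to 16.5 ± 2.27) and the phosphatase Dusp4 (36.7 ± 3.66 to 53.1 ± 6.05).

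Of the 16 tested genes listed as Wnt feedback targets, 0 were called higher after 4 days and 3 lower (18.75%) in edgeR's test. Of all genes 13.7% rose and 14.3% fell, so the share of the list that fell was near that of all genes. Dkk1 was not on this list, although the paper names it beside Axin2 as a negative regulator in feedback loops. Dkk1 was called higher, with 36 reads over the C1HV group and 3 over C1T (log2 fold change 3.52, FDR 1.79e-05). Axin2, a common read-out of β-catenin activity, was at 3.84, 2.91, 2.86 and 3.92 CPM in C1T and 5.68, 2.84, 6.45 and 1.95 CPM in C1HV (log2 fold change 0.40, SE 0.47, FDR 0.584), with overlapping groups. Lef1 and Ccnd1 (222 ± 38.8 to 120.3 ± 10.7 CPM, with exons that overlap an expressed gene on the opposite strand) fell, and so did Notum, though the call of Notum was lost without C1T replicate 1 or C1HV replicate 2 or 3 (FDR 0.254, 0.0743 and 0.051). At day 0 the same list had 4 of 16 higher in C1H than in C1 (13.8% of all genes) and 3 lower (12.1%). Nkd1 was at 2.103 ± 2.01 CPM in C1 and 6.28 ± 0.693 in C1H (log2 fold change 1.63) and then at 4.62 ± 2.23 in C1T and 3.73 ± 0.632 in C1HV, and the difference between these differences passed (log2 fold change -1.99, SE 0.63, FDR 0.0123). Nkd2 and Tnfrsf19, higher in C1H than in C1, did not pass at day 4 (5.48 ± 1.91 and 7.35 ± 1.83 CPM, and 20.9 ± 3.02 and 21.7 ± 3.04 CPM), and their interaction terms were negative as well (log2 fold change -1.63, SE 0.57, FDR 0.02803 and log2 fold change -2.02, SE 0.38, FDR 1.16e-05). In all, 7 of 30 Wnt ligands, receptors and antagonists rose and 3 fell (23.3% and 10.0%). Among secreted antagonists, Sfrp1 rose from 165, 182, 167 and 182 CPM in C1T to 568, 472, 495 and 544 CPM in C1HV (log2 fold change 1.58, SE 0.07, FDR 3.29e-43). At day 0 Sfrp1 was at 1004 CPM in C1 and 882 in C1H, above both. Dkk3 rose from 4.396 ± 1.81 to 10.1 ± 3.35, and Dkk1 and Sfrp2 rose too (log2 fold changes 3.52 and 0.83). Notum, which inactivates Wnts, was among the falls above. The Wnt carrier Wls rose from 17.9 ± 1.93 to 60.9 ± 9.17 CPM, and Porcn, which lipidates Wnts, fell from 32.9 ± 4.67 to 13.4 ± 1.86.

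Of 13 catenins and cadherins 3 rose and 2 fell (23.1% and 15.4%, against 13.7% and 14.3% of all genes; median -0.09), so the list as a whole lay near the background. Cdh1, E-cadherin, was at 296, 254, 366 and 283 CPM in C1T and 179.8, 216, 208 and 199 CPM in C1HV (log2 fold change -0.58, SE 0.08, FDR 2.00e-09), and Ctnnbip1, an inhibitor of β-catenin and TCF binding, fell from 180.3 ± 11.3 to 119.8 ± 4.195. The desmosomal genes Dsp (14.4, 12.1, 10.01 and 15.7 CPM in C1T and 53.7, 64.2, 45.6 and 54.6 CPM in C1HV, log2 fold change 2.07) and Dsg2 (36.9 ± 6.58 to 135 ± 11.7, 1.87) rose, as did α-catenin, Ctnna1 (197 ± 9.65 to 272 ± 13.1, 0.46). At day 0 Dsg2 was at 144 CPM in C1 and 139 in C1H, near its C1HV level. Jup, the γ-catenin that can replace β-catenin in junctions, did not pass (19.9 ± 4.295 and 18.8 ± 2.22 CPM).

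**Figure D2:**
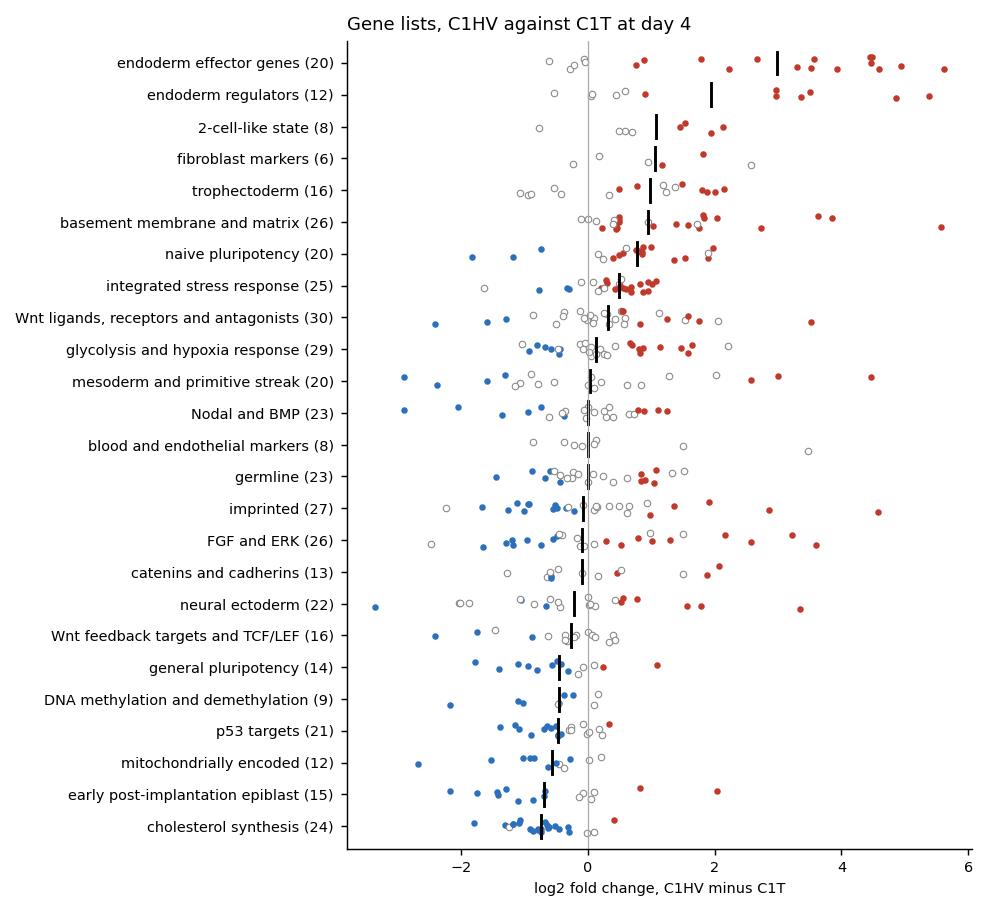
Log2 fold change of C1HV over C1T for every tested gene of each list, one row per list, with genes past FDR 0.05 filled and the list median as a black bar. Endoderm effectors (median 2.99), endoderm regulators (1.94), basement membrane genes (0.95) and naive factors (0.78) lie to the right of 0, and cholesterol synthesis (-0.75) and early post-implantation genes (-0.69) to the left.

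Genes of cholesterol synthesis and uptake were lower in C1HV nearly throughout the pathway: 20 of 24 fell and 1 rose (median -0.75). Summed over the list, C1HV stood at 2173 to 2476 CPM, below both C1T (3569 to 3849) and C1HDT (4203 to 4652). Hmgcs1, which makes HMG-CoA, was at 501, 508, 441 and 488 CPM in C1T and 263, 262, 311 and 284 CPM in C1HV (log2 fold change -0.79, SE 0.07, FDR 3.71e-18). Lss, which closes the sterol ring, fell from 85.4, 95.4, 83.4 and 78.99 CPM in C1T to 26.4, 22.7, 28.8 and 18.9 CPM in C1HV (log2 fold change -1.81, SE 0.14, FDR 4.05e-23). Groups did not overlap at either gene. Mvk (90.9 ± 11.4 to 40.7 ± 6.78 CPM), Nsdhl (43.4 ± 3.82 to 20.2 ± 3.01), Fdps (221 ± 5.58 to 121 ± 14.5), Mvd (428 ± 19.02 to 254 ± 44.7) and Sqle (219 ± 20.3 to 137 ± 3.497), further enzymes of the pathway, fell too. The single riser was Ebp (39.2 ± 6.08 to 52.5 ± 7.02 CPM), whose call was lost without C1T replicate 1 (FDR 0.084). Among the falls, Sc5d lost its call without C1T replicate 1, 3 or 4 or C1HV replicate 1, 3 or 4 (FDR 0.0536 to 0.228), with library size scaling and with no filter on low counts, and Tm7sf2 without C1T replicate 2 or 4 or C1HV replicate 1 or 3 (FDR 0.103 to 0.134). Srebf2, the transcription factor that governs the pathway, was at 149 ± 10.6 and 148 ± 6.65 CPM and did not pass, nor did Insig1, its sterol-sensing retention partner (72.2 ± 3.45 and 77.4 ± 8.51), or Idi1. Cyp51 and Fdft1 overlap exons of other expressed genes on the opposite strand and are uncertain.

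Compared directly with C1HDT, 23 of the 24 genes were lower in C1HV and none higher (median -0.89), a count to set against 9.1% of all genes. Hmgcs1 was at 459, 493, 396 and 459 CPM in C1HDT (log2 fold change -0.69, SE 0.07, FDR 4.60e-14), and Mvd at 693 ± 80.9 against 254 ± 44.7 CPM in C1HV (log2 fold change -1.44, SE 0.13, FDR 9.88e-09). Srebf2 and Insig1 were lower here (-0.40 and -0.53), and so was Ebp (-0.46). The list therefore separated C1HV from C1T and from C1HDT, which each had TMP in the medium. TMP and dox differ together between C1HV and C1HDT, and TMP alone between C1HV and C1T at this stage, so that effects of TMP and of the fusion protein cannot be told apart.

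**Figure D3:**
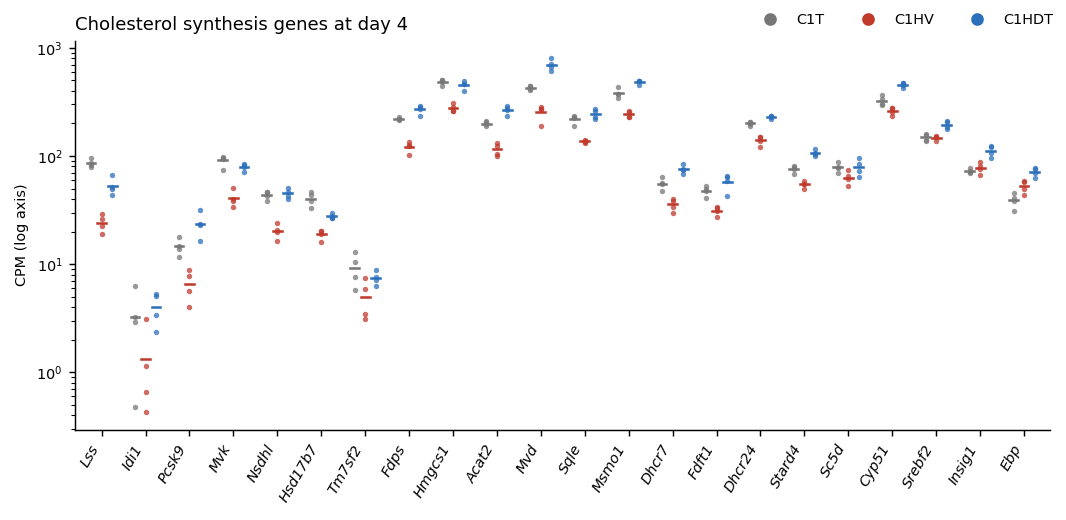
Cholesterol genes in each library of C1T, C1HV and C1HDT, in CPM on a log axis. For Hmgcs1, Lss and Mvd the 4 C1HV libraries are the lowest of the 3 groups.

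Promoters of 4 of these genes are shown because CCAAT boxes recur in them. The windows were taken from RefSeq for GRCm38.p6 and span 250 bases before to 50 after the start site: Hmgcs1 at chr13:119690101-119690400, Lss at chr10:76531355-76531654, Mvk at chr5:114444019-114444318 and Nsdhl at chrX:72918271-72918570, all on the plus strand. Capitals mark CCAAT or ATTGG and, in Hmgcs1 alone, a match to TCACNCCAC, the core of the sterol regulatory element.
Hmgcs1: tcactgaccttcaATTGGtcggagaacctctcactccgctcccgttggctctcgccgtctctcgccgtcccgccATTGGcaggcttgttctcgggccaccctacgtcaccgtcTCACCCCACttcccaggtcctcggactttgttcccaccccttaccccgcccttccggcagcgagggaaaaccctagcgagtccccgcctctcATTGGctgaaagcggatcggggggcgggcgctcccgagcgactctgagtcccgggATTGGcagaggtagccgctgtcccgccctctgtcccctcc
Lss: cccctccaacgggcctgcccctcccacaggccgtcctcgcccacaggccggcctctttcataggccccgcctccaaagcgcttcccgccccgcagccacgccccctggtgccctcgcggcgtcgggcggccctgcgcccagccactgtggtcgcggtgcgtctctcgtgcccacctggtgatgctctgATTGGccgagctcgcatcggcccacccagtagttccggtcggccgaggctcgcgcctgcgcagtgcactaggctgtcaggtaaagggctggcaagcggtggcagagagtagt
Mvk: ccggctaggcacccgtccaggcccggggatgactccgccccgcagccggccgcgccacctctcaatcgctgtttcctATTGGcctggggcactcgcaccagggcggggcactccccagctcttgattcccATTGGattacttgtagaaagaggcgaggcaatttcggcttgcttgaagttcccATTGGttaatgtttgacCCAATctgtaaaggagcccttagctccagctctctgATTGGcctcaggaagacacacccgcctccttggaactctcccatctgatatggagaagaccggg
Nsdhl: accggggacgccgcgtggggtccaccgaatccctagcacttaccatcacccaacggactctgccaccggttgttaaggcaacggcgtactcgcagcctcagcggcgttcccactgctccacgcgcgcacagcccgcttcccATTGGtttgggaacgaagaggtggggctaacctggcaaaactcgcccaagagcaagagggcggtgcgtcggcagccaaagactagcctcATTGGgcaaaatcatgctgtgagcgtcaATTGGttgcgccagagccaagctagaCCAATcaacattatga
Hmgcs1 held CCAAT on either strand at -237, -176, -45 and 10 from the start and the TCACNCCAC match at -137. Lss held 1 CCAAT at -62, Mvk 5 between -173 and -14, and Nsdhl 4 between -109 and 34. CCAAT stood in 15 of the 16 cholesterol genes that have a window (93.8%), in 43% of all tested genes with a window and in 37.4% of all windows. Of the endoderm lists, which were higher in C1HV, it stood in 6 of 7 regulators (85.7%) and 4 of 16 effectors (25%) with a window. TCACNCCAC stood in 1 of the 16 (6.25%) and in 1.24% of all windows. Both motifs were searched on both strands and share no bases in these windows, and a match is not evidence of binding.

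Targets of p53 were lower in C1HV: 12 of 21 fell (57.1%) and 1 rose (4.76%), against 14.3% and 13.7% of all genes (median -0.47). Btg2 lost its call in 4 alternative fits, Perp in 7 and Tnfrsf10b, the single riser, in 9, for each including fits without single libraries. Cdkn1a, the cell cycle inhibitor p21, was at 299.9, 301, 294 and 322 CPM in C1T and 242, 191, 223 and 219 CPM in C1HV (log2 fold change -0.47, SE 0.09, FDR 3.06e-06). Mdm2, the ligase that degrades p53, was at 235, 243, 231 and 193 CPM in C1T and 154, 136, 162 and 154 CPM in C1HV (log2 fold change -0.58, SE 0.09, FDR 7.54e-09), and neither gene overlapped between the groups. Pmaip1, the death gene Noxa, fell from 26.7 ± 2.66 to 12.02 ± 1.59 CPM (-1.15), and Plk2 from 19.2 ± 7.15 to 7.17 ± 1.53 (-1.39). Bax (186 ± 24.8 and 151 ± 17.3 CPM) and Bbc3 (33.97 ± 4.09 and 33.5 ± 4.42) did not pass. Against C1HDT 11 of the 21 were lower in C1HV and none higher, where 9.1% of all genes were lower and 6.88% higher.

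Genes of the integrated stress response rose more often than they fell, 15 against 3 of 25 (median 0.49). Asns, asparagine synthetase, was at 187, 192, 187 and 185 CPM in C1T and 308, 332, 289.5 and 268 CPM in C1HV (log2 fold change 0.67, SE 0.08, FDR 3.32e-13). Nupr1, a stress-induced chromatin protein, was at 80.6, 101, 86.3 and 101 CPM in C1T and 184, 191, 209.5 and 187 CPM in C1HV (log2 fold change 1.07, SE 0.09, FDR 7.57e-20). Ddit4, an inhibitor of mTORC1, rose from 299 ± 20.5 to 601 ± 93.9 CPM, Slc7a5 from 135 ± 3.25 to 260.2 ± 31.02 and Trib3 from 67.4 ± 9.41 to 97.8 ± 18.8. Ddit3 rose from 329 ± 34.5 to 578 ± 86.3, with exons that overlap those of Mars on the opposite strand. Atf4, whose protein drives the response and is controlled largely at translation, moved the other way at 3021, 2979.9, 2930.1 and 2936 CPM in C1T and 1885, 1729, 1796 and 1497 CPM in C1HV (log2 fold change -0.78, SE 0.06, FDR 3.96e-22).

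Glycolysis and hypoxia genes gave 9 rises and 6 falls among 29 (31% and 20.7%, against 13.7% and 14.3% of all genes). Slc2a3, a high-affinity glucose transporter, rose from 304, 319, 259 and 292 CPM in C1T to 817, 778, 821 and 842 CPM in C1HV (log2 fold change 1.47, SE 0.07, FDR 7.05e-41), while Slc2a1, the ubiquitous transporter, fell from 296 ± 20.3 to 197 ± 40.5 and lactate dehydrogenase Ldha from 905 ± 14.5 to 666 ± 63.3. The hypoxia-responsive Ndrg1 (11.4 ± 1.101 to 36.8 ± 15.4 CPM) and Ero1l (17.4 ± 2.58 to 39.4 ± 10.5) rose. The glycolytic enzymes Gapdh, Pkm and Aldoa did not pass (log2 fold changes -0.04 to 0.04).

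Of 12 mitochondrially encoded genes tested 8 fell and none rose. mt-Nd4, a subunit of complex I, was at 6842, 6682, 7335 and 7209 CPM in C1T and 2253, 2432, 2386 and 2632 CPM in C1HV (log2 fold change -1.53, SE 0.15, FDR 6.35e-09). mt-Nd2 was at 4023, 3729, 3893 and 5595 CPM in C1T and 1782, 2211, 2249 and 2263 CPM in C1HV (log2 fold change -1.02, SE 0.15, FDR 5.67e-06). All C1T libraries were above all C1HV libraries at both genes, and C1T replicate 4 stood above the other 3 of its group at mt-Nd2. mt-Nd1 (2976 ± 71.6 to 1919 ± 228 CPM), mt-Cytb (1851 ± 30.9 to 1303 ± 149) and mt-Co1 (425 ± 25.03 to 348 ± 17.5) fell less. In a 3′ assay such genes are read at few priming sites, and their levels cannot be compared with each other.

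Among called genes with an official name, a mean log2 CPM of at least 1 and no overlap between the groups, the 12 largest rises by fold change were Hkdc1, Tfec, S100g, Pdzd3, Tmprss2, Nxf7, Cubn, Lama1, Sox17, Ikbke, Capn6 and Ihh. Hkdc1, a hexokinase-related gene, had 0 reads in every C1T library and 8.27, 7.95, 9.46 and 11.1 CPM in C1HV, at least 6.05-fold higher when C1T is set to its floor of 3 reads per library. Tfec, a basic helix-loop-helix factor, was at 0 in C1T too and at 7.23, 6.82, 2.58 and 6.51 CPM in C1HV, at least 3.81-fold higher. S100g, a calcium-binding protein of absorptive epithelia, was at 0, 0, 0 and 0.653 CPM in C1T and 18.1, 11.4, 18.1 and 13.7 in C1HV, a ratio of 127 (95% counting interval 22.3 to 5047). The scaffold gene Pdzd3 (95.6, 16.7 to 3817), the membrane protease Tmprss2 (91.3, 15.9 to 3647) and the hedgehog ligand Ihh (45.1, 7.66 to 1823), which visceral endoderm secretes, had wide intervals too, each resting on a single C1T read.

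By the same rule the 12 largest decreases were Sertm1, Sema6a, Wt1, Ltb4r1, Dock10, Kirrel2, Sema5b, Pcdh8, Necab1, Proser3, Frrs1l and Ebf2. Sema6a, a transmembrane semaphorin, was at 47.99, 34.1, 45.3 and 30.7 CPM in C1T and 0, 2.27, 1.72 and 3.25 CPM in C1HV (log2 fold change -4.48, SE 0.35, FDR 1.42e-23). Pcdh8, a protocadherin of the paraxial mesoderm and brain, was at 9.597, 12.5, 6.67 and 4.57 CPM in C1T and 0, 0.568, 0.8604 and 1.301 CPM in C1HV (log2 fold change -3.58, SE 0.63, FDR 1.09e-06). Wt1, a zinc-finger factor of mesothelium and kidney, was at 14.4, 7.91, 12.9 and 7.83 CPM in C1T and 0.517, 0.568, 0.8604 and 0 CPM in C1HV (log2 fold change -4.23, SE 0.59, FDR 9.85e-10). Sema5b fell from 56.3 ± 10.4 to 4.21 ± 1.15 CPM. Kirrel2 and Ltb4r1 had 3 reads or fewer in C1HV, with ratios of C1T over C1HV of 15.8 (95% counting interval 5.12 to 79.3) and 16.8 (5.44 to 83.8). Proser3 and Necab1 overlap other expressed genes on the opposite strand. Ebf2 lost its call without C1T replicate 2 or 4 or C1HV replicate 1, 2 or 3 (FDR 0.0575 to 0.12).

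By absolute size in CPM among called genes whose groups did not overlap, the leading rises were Rps20, Sparc, Eef1a1, Eef2, Rpl13, Apoe, Tagln2 and Klf5, and the leading falls included mt-Nd4, mt-Nd2, Hsp90ab1, Chchd2, Atf4 and Npm1. The small change of Hsp90ab1 (-0.19) was no longer called with library size scaling or without C1T replicate 3 or C1HV replicate 1 (FDR 0.0591 and 0.0999). Rps20, a ribosomal protein gene, was at 8864, 9152, 8739 and 8704 CPM in C1T and 13072, 10615, 11819 and 11029 CPM in C1HV (log2 fold change 0.39, SE 0.06, FDR 1.78e-08). Npm1, a nucleolar chaperone, was at 4496, 4178, 4782 and 4559.9 CPM in C1T and 2834, 3571, 3349 and 3425 CPM in C1HV (log2 fold change -0.45, SE 0.06, FDR 1.06e-09).

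Whether the day 4 differences were already present in the sorted cells was asked with C1H against C1 at day 0, which shares no library with C1HV against C1T. There 3965 genes passed (25.9%), with 13.8% of all genes higher in C1H and 12.1% lower. 1607 genes were called at both days, 37.61% of the day 4 calls and 40.53% of the day 0 calls, and 1140 of these (70.94%) had the same direction. The difference between the day 4 and the day 0 effect, tested as an interaction term, passed for 3349 genes (21.9%), with 1633 more positive at day 4 (10.7%) and 1716 more negative (11.2%).

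Most endoderm effectors and matrix genes belonged to the former. For 13 of 20 effectors, 5 of 12 regulators and 16 of 26 basement membrane genes the C1HV difference exceeded that at day 0, and 1 effector and no gene of the other 2 lists had the opposite outcome. Sparc was at 1329 ± 132 CPM in C1 and 755 ± 36.5 in C1H (log2 fold change -0.82), and its day 4 effect was larger by 4.12 (SE 0.10, FDR 4.11e-78). Gata6 was at 1.26 ± 1.15 and 2.801 ± 1.01 CPM at day 0 (FDR 0.116), with an interaction of 2.36 (FDR 0.00397). Sox17 was at 2.36 ± 0.975 and 4.01 ± 1.12 CPM at day 0 (FDR 0.205; interaction 4.68, FDR 1.71e-06). At the sort, then, these genes showed no difference of the size seen 4 days later. 12 of 20 naive factors had a more positive and 2 a more negative effect at day 4. Klf4 was lower in C1H than in C1 (-0.56) and higher in C1HV than in C1T (1.36; interaction 1.92, FDR 6.92e-15). Among glycolysis genes, 16 of 29 were lower at day 0 and 1 higher, and 19 had a more positive effect at day 4 and 1 a more negative one. Aldoa went from -0.88 at day 0 to 0.04 at day 4 (interaction FDR 3.76e-16).

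Germline genes were the reverse case. At day 0, 18 of 23 were higher in C1H (78.3%) and none lower (median 1.76), against 13.8% and 12.1% of all genes. At day 4, 5 rose and 5 fell (21.7% each, median -0.01), not far from the 13.7% and 14.3% of all genes. The difference between the days was negative for 14 and positive for none. Sycp1, a component of the meiotic synaptonemal complex, was at 2.52, 5.66, 4.67 and 5.27 CPM in C1 and 36.1, 42.9, 37.7 and 35.3 CPM in C1H (log2 fold change 3.09, SE 0.23, FDR 1.02e-24). At day 4 it was at 33.1, 30.8, 23.8 and 21.5 CPM in C1T and 10.9, 10.8, 9.03 and 9.76 CPM in C1HV (log2 fold change -1.45, SE 0.21, FDR 5.85e-09). Its order was thus turned round between the days (interaction -4.54, FDR 7.16e-27). Dazl, a translational regulator of germ cells, was at 18.3 ± 2.28 and 77.7 ± 4.07 CPM at day 0 (FDR 2.64e-25) and at 18.4 ± 4.86 and 13.8 ± 4.201 at day 4 (FDR 0.107). Smc1b, a meiotic cohesin, kept a rise at both days, by 1.67 and then 1.07. Kit and Tex11 did so too. Exons of Sycp3 overlap an expressed gene on the opposite strand, so its counts are uncertain.

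Markers of the 2-cell-like state, a rare ESC state that resembles the cleaving embryo, were strongly raised at day 0, with 7 of 8 called higher (median 3.87), and their sum was 4.5 to 6.2 CPM in C1 and 71 to 86 in C1H. At day 4 the sum was 12.4 to 18.2 CPM in C1T and 28.4 to 40.9 in C1HV, and 4 of 8 were called higher. Gm8300 was at 1.26, 1.13, 0.519 and 1.44 CPM in C1 and 39.2, 34.5, 39.9 and 29.4 CPM in C1H and then at 3.36, 3.33, 1.91 and 1.96 CPM in C1T and 9.82, 14.2, 10.3 and 7.81 CPM in C1HV (log2 fold change 1.95, SE 0.34, FDR 6.33e-07). The rise remained beyond the spread but was smaller than at day 0 (interaction -3.01, FDR 1.30e-05). Zfp352, at 2.53 ± 0.626 CPM in C1H, no longer passed at day 4 (3.32 ± 0.904 and 1.91 ± 1.68 CPM). The other 3 day 4 calls were in families of near-identical copies and are uncertain. Zscan4d lost its call without C1T replicate 1 or 4 or C1HV replicate 3 (FDR up to 0.0741). Tcstv1 lost it without C1T replicate 2 or 3 or C1HV replicate 2 or 3 (up to 0.187), in DESeq2, with no filter on low counts and with a replicate block. Usp17le lost it without C1T replicate 2 or 3 or C1HV replicate 4 (up to 0.203).

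For p53 targets the day 0 effect was 7 higher and 3 lower of 21 (33.3% and 14.3%), against 13.8% and 12.1% of all genes. The share lower was thus near the background. A more negative effect at day 4 was called for 14 (66.7%) and a more positive one for none, against 11.2% and 10.7% of all genes. Cdkn1a was higher by 0.72 in C1H and lower by 0.47 in C1HV (interaction FDR 5.57e-15). Cholesterol genes were lower at both days for many members, with 12 of 24 lower and 1 higher at day 0, and with 10 more negative and 1 more positive at day 4.

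**Figure D4:**
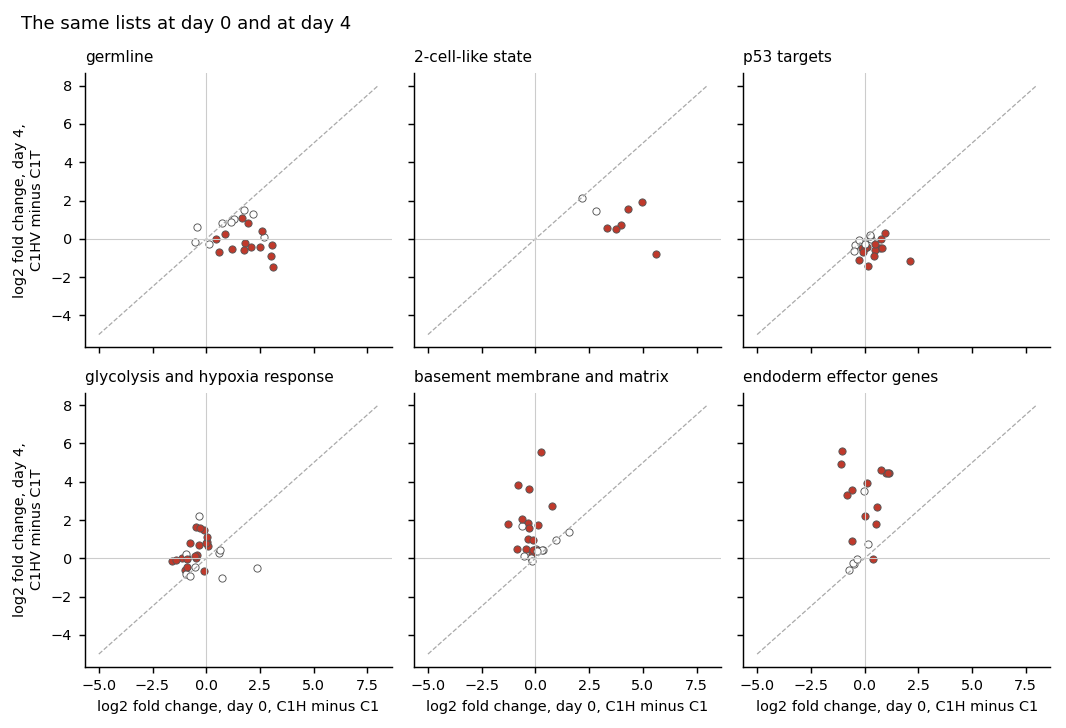
Effects at day 0 (x axis, log2 fold change of C1H over C1) and day 4 (y axis, log2 fold change of C1HV over C1T) for the genes of 6 lists, with a dashed line of equality and filled points for genes past FDR 0.05 for the difference between the effects. Most endoderm effector genes lie above the line, with Sparc at -0.82 and 3.30, and most germline genes below it, with Sycp1 at 3.09 and -1.45.

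C1T stood apart from the other day 4 groups at many genes. In 588 tested genes (3.85%) all 4 C1T libraries were above the 28 others of the series, and in 420 (2.75%) they were below, against 5 and 5 genes for C1HV (0.0327% each) 20 and 7 for C1HDT, and 529 and 340 for the other never-induced group, C1 at day 0. The genes given next were chosen after their values were seen, for the widest gaps at a mean level of at least 5 log2 CPM. Tcf15, a basic helix-loop-helix factor linked to priming for differentiation, was at 336, 347, 287 and 307 CPM in C1T and at 20.2 to 80.7 in all other libraries. Pura, a nucleic acid-binding protein, was at 721, 648, 682 and 692 CPM in C1T and at 111 to 262 elsewhere. Dnmt3a had the same pattern. The C1HV values of Pura and Dnmt3a were within the range of the 6 remaining groups, while Tcf15 was at 50.6, 68.7, 62.8 and 80.7 CPM in C1HV, which includes the highest value outside C1T. On the opposite side, the secreted protease Htra1 was at 0.4799, 2.08, 3.34 and 1.96 CPM in C1T and 36.4 to 69.3 in the others, and the fatty acid carrier Fabp3 at 24.5, 23.7, 20.5 and 26.8 and 139.7 to 349. At these genes C1T was therefore apart from day 0 cells and from constantly induced cells as well as from C1HV.

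**Figure D5:**
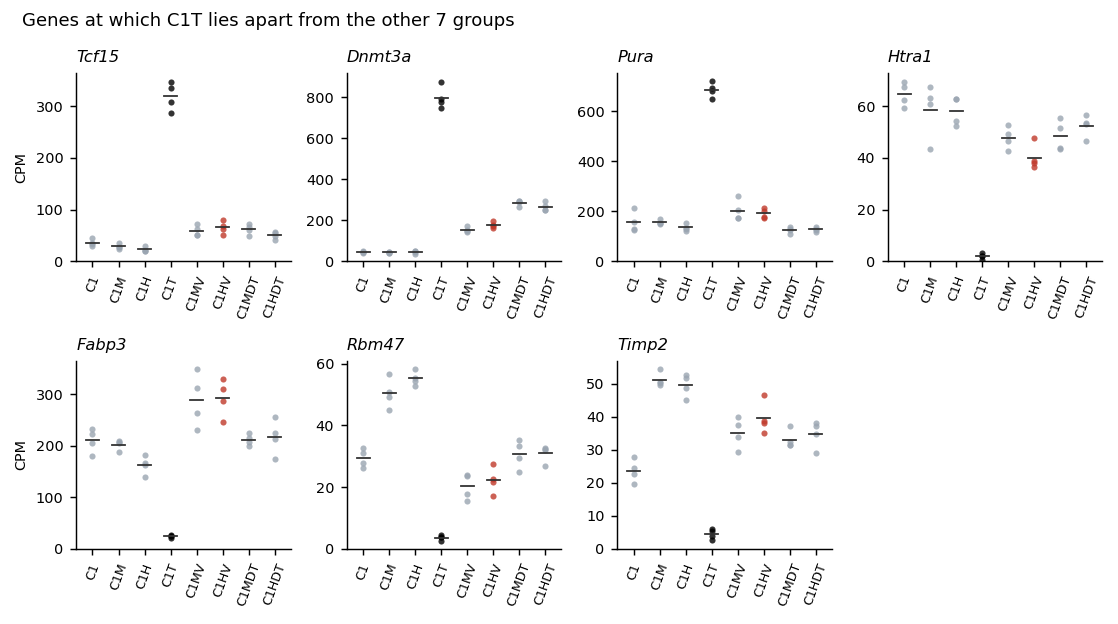
Levels of 7 genes, in CPM per library, across all 8 groups of the series. C1T is above every other library for Tcf15, Dnmt3a and Pura and below every other for Htra1, Fabp3, Rbm47 and Timp2.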

How the data were processed

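QuantSeq 3′ mRNA libraries were analysed for 8 groups of 4. Per the methods of the study, reads were trimmed with bbduk, aligned with STAR to mm10 and counted per Ensembl gene with htseq-count. The authors deposited these raw counts without normalization, and the strand setting of the counting is not given in the sources used here. The labels describe growth in serum with LIF, the study's methods preculture in 2i with LIF. Of 31053 gene rows 30934 were named by the annotation, and the 119 others hold 0.02% of reads.

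Groups were taken from the labels. Genes with CPM of at least 1 in at least 4 libraries (15280) were tested with edgeR 4.0.16 in R 4.3.3 (TMM normalization, quasi-likelihood test, one fit of 32 libraries, Benjamini-Hochberg FDR under 0.05), and the code was tested on simulated data. SE is the log2 fold change divided by the square root of F. CPM values are scaled by TMM library sizes. A group at 0 is given against a floor of 3 reads, and intervals (95%) cover counting error only. Library measures were tested with exact permutation, two-sided. Alternatives were DESeq2 1.42.0, other scalings, no filter, fits of the compared groups, a replicate block and leaving out each library.

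Members of the gene lists, and the lists, were chosen with earlier results of these data known. Named genes are Ctnnb1, members of the 25 lists, and by rule the 12 largest called rises and 12 largest falls by log2 fold change without overlap of libraries, at a mean log2 CPM of at least 1 and with an official name, the 8 largest in CPM each way without overlap, and the 4 largest each way in the other comparisons. Some genes that these rules pick are not reported here. Exons of 151 of 476 named genes overlap another gene. Promoter windows came from RefSeq (GRCm38.p6, 326 of 476 matched), and the motifs CCAAT, the sterol element TCACNCCAC, the endoderm factor site AGATAA, the Wnt effector site CTTTGAT and the E-box CACGTG were searched on both strands.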

Additional observations from a re-analysis of the deposited data

Results flagged for a closer look

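Samples were examined for single libraries far from the other 3 of their group by Dixon's gap over range (95% limit), in 92 groups of values, and chance alone would give about 1 in 20. C1T replicate 4 stood apart in its share of mitochondrially encoded reads (1.82%), in mt-Nd2 (5590 CPM) and in Chchd2 (3310 CPM), and C1HV replicate 1 in mt-Nd2 (1780 CPM). Both mt-Nd2 and Chchd2 kept their calls without any single library.

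Several of the largest changes rest on levels near 0 in one group, where 1 read sets a library apart. S100g, Pdzd3 and Ihh had their only C1T reads in replicate 4 (0.653 CPM each), Tmprss2 in replicate 1 (0.48 CPM), and Sox17 had both of its C1T reads in replicate 1 (0.96 CPM). In C1HV, Dock10 and Necab1 were detected in replicate 3 (0.43 CPM each) and Ebf2 stood apart in replicate 4 (0.651 CPM). Tfec in C1HV replicate 3 (2.58 CPM) and Capn6 in C1HV replicate 4 (3.25 CPM) lay away from the other 3 libraries of their group.

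The difference of C1HV from C1T at day 4 was unlike that of C1H from C1 at day 0 at 3349 genes. This was called by the interaction term of edgeR's quasi-likelihood test. The days also differ in medium, in the time since sorting and in the presence of inducers, and these cannot be told apart.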

How the results depend on the processing

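The count of genes called between C1HV and C1T ranged from 3797 to 4337 over other normalizations, filters, DESeq2 and a fit of these groups alone, and from 3737 to 4037 with 1 library left out. Testing for changes beyond 2-fold, chosen after seeing the data, called 381 (242 higher, 139 lower). In C1HV against C1MV, DESeq2 called 2 genes, neither of them Slc13a5, among the 1357 to which it gave an adjusted p. The count was 3 with no filter on low counts, Slc13a5 included, and 0 in edgeR fitted to the compared groups alone (828 genes at an unadjusted p under 0.05), and 0 to 8 with 1 library left out. The C1HDT comparison gave 1744 to 2382 calls with 1 library left out, and the interaction 3001 to 3234.

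Replicate numbers do not pair these libraries: same-numbered C1HV and C1T libraries correlated at -0.0717 to 0.00216 in their deviations, and 0 libraries correlated best with their own number. With a replicate block the counts were 4212, 1, 2404 and 3297 in the order above. Of the 280 genes followed one by one and called between C1HV and C1T, 0 changed sign in any setting and 54 lost the call in at least 1. Uncalled genes did change sign, such as Smad6 (-3.93 to 0.58 on the log2 scale). At 3 reads or fewer per library (about 1 to 2 CPM), depth limits what can be called.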

Other observations

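Trophectoderm markers are a list of keratins and transcription factors of the outer blastocyst lineage. Of 16 tested 7 were called higher in C1HV (43.75%) and none lower (median 0.98), against 13.7% and 14.3% of all genes. At day 0 the list summed to 766 to 865 CPM in C1 and 657 to 724 in C1H. At day 4 it summed to 167 to 196 CPM in C1T and 261 to 303 in C1HV, so both were below day 0. The defining factor Cdx2 was at 0 to 0.9597 CPM in C1T and 0 to 0.568 in C1HV, and Eomes, Gata3 and Hand1 did not pass. The genes that rose included the epithelial keratins Krt8 (3.22 ± 1.46 to 11.8 ± 5.28 CPM) and Krt18 (11.1 ± 4.54 to 29.6 ± 7.66), which endoderm also expresses, together with Tead4 (2.79 ± 1.02 to 9.88 ± 1.82), Tfap2c (48.2 ± 5.096 to 81.7 ± 5.38) and Esx1 (1.07 ± 0.643 to 4.29 ± 1.77).

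Of 27 imprinted genes 5 were higher (18.5%) and 11 lower (40.7%), against 13.7% and 14.3% of all genes, so the share higher was near the background. Among the falls, Mest lost its call in 10 alternative fits and Ndn and Ube3a in 9 each. H19, a growth-restraining noncoding RNA, was at 4.799, 6.25, 8.58 and 7.18 CPM in C1T and 63.6, 42.04, 47.8 and 38.4 CPM in C1HV (log2 fold change 2.85, SE 0.27, FDR 1.08e-11), and Phlda2, a growth regulator of the placenta, rose from 5.77 ± 1.67 to 21.6 ± 2.95 CPM. Igf2, the neighbour of H19, had 0 reads in C1T and up to 3 reads per library in C1HV, too few for a fold, and its call was lost without C1HV replicate 2 (FDR 0.079). From the Dlk1-Meg3 domain Meg3 (3217 ± 246 to 2249 ± 357 CPM) and Mirg (267 ± 12.1 to 132 ± 5.66) fell, and so did Kcnq1ot1 (175 ± 9.32 to 54.7 ± 18.1), Cdkn1c (41.3 ± 7.75 to 18.9 ± 4.31), Grb10 (23.6 ± 4.92 to 9.75 ± 1.395) and Snrpn (262 ± 17.8 to 136 ± 17.2). Allele of origin was not measured.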
